A study of Mus musculus with 10 samples.

Results

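The genes described are 35 imprinted genes of the mouse, chosen as the symbols of a list of 38 that had at least 10 reads over all 10 libraries. They stood among 14581 genes with that many reads, out of 31053 gene IDs in the count files. Of the other listed genes, Snurf had 0 reads, Airn had 1 read and Rian was not analysed here. All libraries came from E14 cells, an established line of mouse embryonic stem cells, and every group carried a stably transfected construct from which doxycycline (DOX) induces Esrrb. This gene encodes an orphan nuclear receptor of the naive pluripotency network. In the first group (2iL, n = 4) the cells grew in serum-free N2B27 medium with 3 µM of the GSK3 inhibitor CHIR99021, 1 µM of the MEK inhibitor PD0325901 and the cytokine LIF, without DOX. In the other two groups 2iL was removed and the cells were collected after 96 h, either without DOX (n = 3) or with DOX added (n = 3). The sources used here do not give the DOX dose. The titles divide the libraries into 2 experiments: each holds 2 libraries in 2iL, and experiment 1 holds 2 and experiment 2 holds 1 in each 96 h group. The labels do not say whether the line is a single clone or whether libraries came from separate cultures, so p-values measure the spread between these libraries, which may be technical. No group lacked the construct, and none received DOX in 2iL.

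Imprinted genes are expressed mainly from the copy inherited from one parent. For many of them, though not all, the choice is set by DNA methylation laid down in the egg or the sperm at imprinting control regions. That methylation is kept after fertilisation by proteins such as ZFP57, TRIM28 and DNMT1. The genes lie in domains in which one control region governs several neighbours, often through a long non-coding RNA. Many act on growth of the fetus and placenta or in the brain, and mouse embryonic stem cells can lose imprints in culture. The reads were not assigned to parental alleles, so the values are total levels of both copies together.

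Stretches upstream of RefSeq gene starts (GRCm38.p6) are shown first for members whose levels changed, because promoters of imprinted genes often lie in or near methylated control regions and the letters show how much CG sequence, the target of that methylation, each holds. Windows of 250 bases before a start were matched by symbol for 30 of the 35 members (47 windows). Each sequence reads 5′ to 3′ on the strand named and leaves out annotated exons. Of several windows of a gene, the one with the longest stretch free of exons, then the most CG and then the lowest coordinate is shown. Every CG is in capitals. The first stretch lies between Peg3 and Usp29, which are transcribed away from each other (chr7:6730432-6730577, plus strand). The others lie before a RefSeq start of Meg3 (chr12:109540746-109540995, plus strand), Mest (chr6:30737800-30738049, plus strand), Nnat (chr2:157560008-157560077, plus strand), Grb10 (chr11:12037421-12037670, minus strand) and Slc38a4 (chr15:97020360-97020609, minus strand). Those of Mest, Grb10 and Slc38a4 are inside the annotated gene. Slc38a4 spans chr15:96994820-97055956, and the window before its outermost start (chr15:97055957-97056206) held 3 CG.
Peg3-Usp29: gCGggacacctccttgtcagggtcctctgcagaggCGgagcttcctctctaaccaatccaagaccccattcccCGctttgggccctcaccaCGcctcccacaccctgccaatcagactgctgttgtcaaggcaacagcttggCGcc
Meg3: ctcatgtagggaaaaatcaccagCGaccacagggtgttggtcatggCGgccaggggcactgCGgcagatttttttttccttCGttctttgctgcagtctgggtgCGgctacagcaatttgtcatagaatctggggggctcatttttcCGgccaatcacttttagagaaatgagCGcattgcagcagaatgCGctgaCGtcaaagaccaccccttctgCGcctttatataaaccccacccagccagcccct
Mest: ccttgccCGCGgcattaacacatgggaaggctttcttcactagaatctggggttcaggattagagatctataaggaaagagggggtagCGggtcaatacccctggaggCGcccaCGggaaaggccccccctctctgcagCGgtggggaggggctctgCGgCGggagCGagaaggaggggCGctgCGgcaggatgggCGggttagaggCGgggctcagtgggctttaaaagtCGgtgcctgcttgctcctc
Nnat: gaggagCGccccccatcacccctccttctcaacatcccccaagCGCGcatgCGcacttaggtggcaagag
Grb10: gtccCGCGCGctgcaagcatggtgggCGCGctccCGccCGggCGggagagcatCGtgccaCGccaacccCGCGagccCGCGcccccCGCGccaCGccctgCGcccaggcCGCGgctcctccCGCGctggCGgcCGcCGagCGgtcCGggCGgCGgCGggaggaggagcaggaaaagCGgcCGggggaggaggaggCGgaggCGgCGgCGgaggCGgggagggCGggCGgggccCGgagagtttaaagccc
Slc38a4: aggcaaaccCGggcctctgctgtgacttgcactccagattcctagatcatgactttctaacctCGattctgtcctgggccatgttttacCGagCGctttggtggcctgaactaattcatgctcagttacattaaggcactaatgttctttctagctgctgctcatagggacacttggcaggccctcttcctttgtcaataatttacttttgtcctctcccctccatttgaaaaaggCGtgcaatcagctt

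The printed Grb10 window held 40 CG in 250 bases, the most of any member window, and the Slc38a4 window held 5. Meg3 had 10 and Mest 14. Over the 47 member windows the median was 11 CG and the range 0 to 40, against a median of 6 over 32851 windows of all genes. At least 10 CG stood in 28 member windows (59.6%) and in 37.8% of all windows. The sequence TGCCGC, the core bound by ZFP57 when its CG is methylated, was searched on both strands. It was found in 8 windows of 7 members (Zdbf2, Mcts2, Mest, Nap1l5, Zim1, Plagl1 and Meg3), which is 17.0% of member windows against 8.68% of all windows. The Mest window shown holds it 2 times and the Meg3 window 1 time. Both Mest windows overlap and hold the same matches. The Esrrb motif TCAAGGTCA was in 0 member windows and in 0.387% of all windows. The YY1 motif GCCATCTT was in 1 member window (Ube3a) and in 1.56% of all windows. These matches describe letters in these windows only.

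Levels are CPM, reads scaled to the library total after TMM correction of that total. The libraries held 1253620 to 4715450 reads in genes, and 12659 to 14723 genes had a read. Naive pluripotency markers summed to 2188 to 2537 CPM in 2iL, 157 to 180.1 at 96 h without DOX and 432 to 505 with DOX (8 of 8 markers had reads). Not every marker was higher with DOX than without. Klf2 had 40.7 to 47.1 CPM with DOX, within its 36 to 60.8 CPM without DOX, and the 96 h groups also overlapped for Nanog. Endogenous and construct Esrrb reads cannot be told apart, and total Esrrb was 228 to 377 CPM in 2iL, 13.5 to 31.9 without DOX and 12.8 to 26.9 with DOX. It was therefore no higher in the libraries labelled DOX. The sources used here do not say whether a transcript from the construct would be counted at the Esrrb gene. One DOX library of experiment 1, exp1_2, stood apart. It had the lowest depth, the RNA Gm42418 took 14.8% of its reads against 3.39% to 6.61% in the others, and mitochondrial genes took 3.10% against 0.559% to 1.27%. Its 7 fibroblast markers summed to 1917 CPM against 1.99 to 21.1 in the other 9 libraries, with Postn at 0 in those 9. Col1a2 (1177 CPM) and Col1a1 (544 CPM) made the largest parts of that sum. Lum and Thy1 did not stand apart, at 0.729 and 15.3 CPM, where other libraries reached 1.46 and 14.2 CPM. Levels are listed in 1 order: exp1_1, exp1_2, exp2_1 and exp2_2 for 2iL, exp1_1, exp1_2 and exp2_2 without DOX, and exp1_1, exp2_1 and exp1_2 with DOX. The 3′ tags are not scaled by gene length, so levels are compared within a gene.

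Together the 35 genes took 0.254% to 0.314% of the reads in 2iL, 0.696% to 0.838% at 96 h without DOX and 0.474% to 0.509% at 96 h with DOX. Meg3 alone took 0.135% to 0.198%, 0.479% to 0.639% and 0.214% to 0.319%. Without Meg3 the shares were 0.105% to 0.126%, 0.200% to 0.217% and 0.191% to 0.260%. On these shares, which carry no TMM correction, 2iL did not overlap with either 96 h group; with that correction the Meg3 level of 1 DOX library lay within the range of 2iL. In bulk RNA, fewer cells that express a gene and less RNA per cell cannot be told apart.

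**Figure D1:**
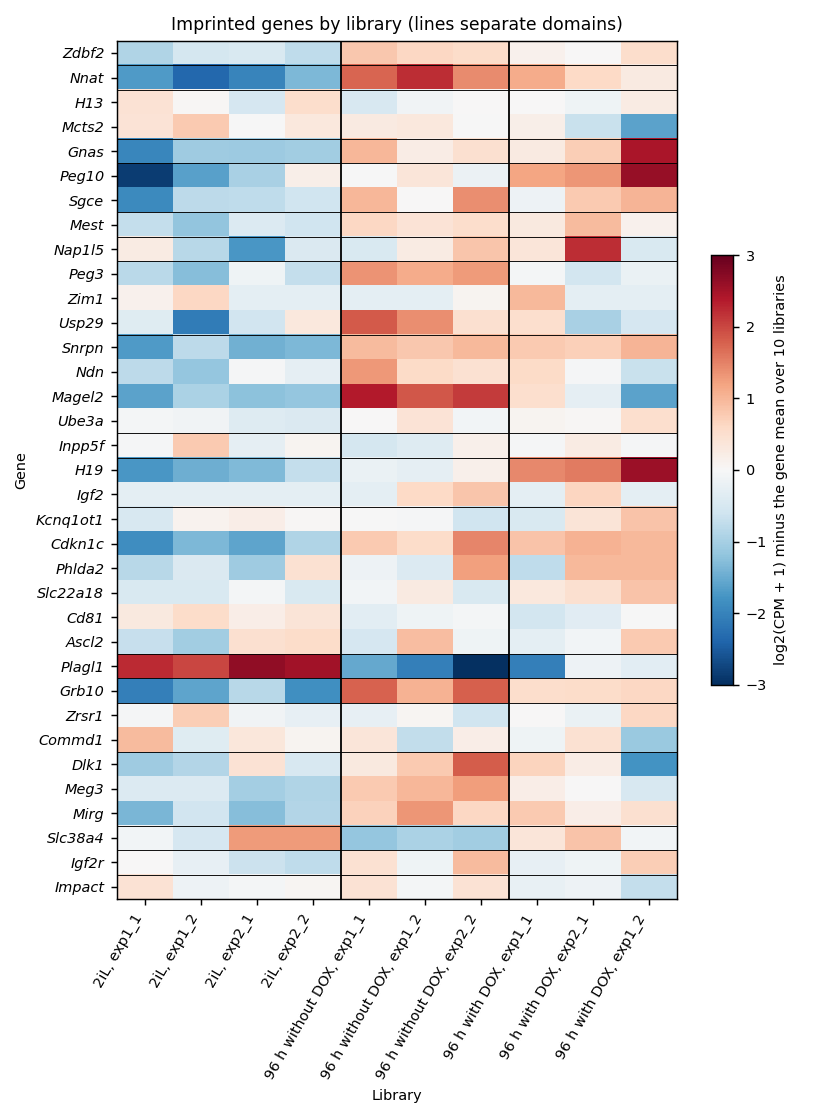
Level of each of the 35 imprinted genes in each of the 10 libraries, as log2(CPM + 1) minus that gene's mean over the libraries, on a colour scale from blue (low) to red (high); thin lines separate imprinted domains and thick lines the groups. Nnat, Grb10, Cdkn1c, Snrpn and Magel2 are blue in all 4 libraries in 2iL, Plagl1 is red in them, and H19, Peg10 and Gnas are deepest red in the DOX library exp1_2.

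Removal of 2iL without DOX was compared first. Of the 35 genes, 31 had enough reads for the fit across all 11215 tested genes; Igf2, Zim1, Ascl2 and Slc22a18 did not. At an edgeR adjusted p below 0.05, 15 of the 31 rose and 2 fell (54.8% called), while 20.4% of all tested genes were called (11.5% higher and 8.9% lower). The median log2 fold change was 1.24 over the 31 members and 0.00 over all tested genes. The genes that rose came from both parental classes: 9 of 19 tested genes known as paternally expressed rose and 2 fell, and 4 of 9 known as maternally expressed rose and 0 fell. The other 3 tested genes (Gnas, Grb10 and Ube3a) were listed apart as using alleles differently by tissue or transcript, and 2 of them rose. Allele use was not measured here, and genes in the parental classes may also vary by tissue or transcript. In all 17 called genes the fitted change had the same sign in both experiments. The calls were made on these same libraries, so that agreement is no separate support for them. The groups did not overlap for 18 of the 31 members (these 17 and Cd81), and for 31% of all tested genes. Epiblast markers moved at the same time, from a sum of 188 to 248 CPM in 2iL to 2236 to 2455 CPM (4 of 4 markers had reads). Dnmt3b made the largest part of each sum, at 159.5 to 195 CPM and 1591 to 1964 CPM, and edgeR called 4 of the 4 higher. Neural markers summed to 205 to 751 CPM in 2iL and 931 to 1487 CPM at 96 h without DOX (6 of 6 had reads). Tubb3, the largest part of each neural sum, overlapped between these groups, and edgeR called 3 of the 6 higher and 0 lower. The part of the epiblast and neural markers in the changes of imprinted genes was not tested.

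**Figure D2:**
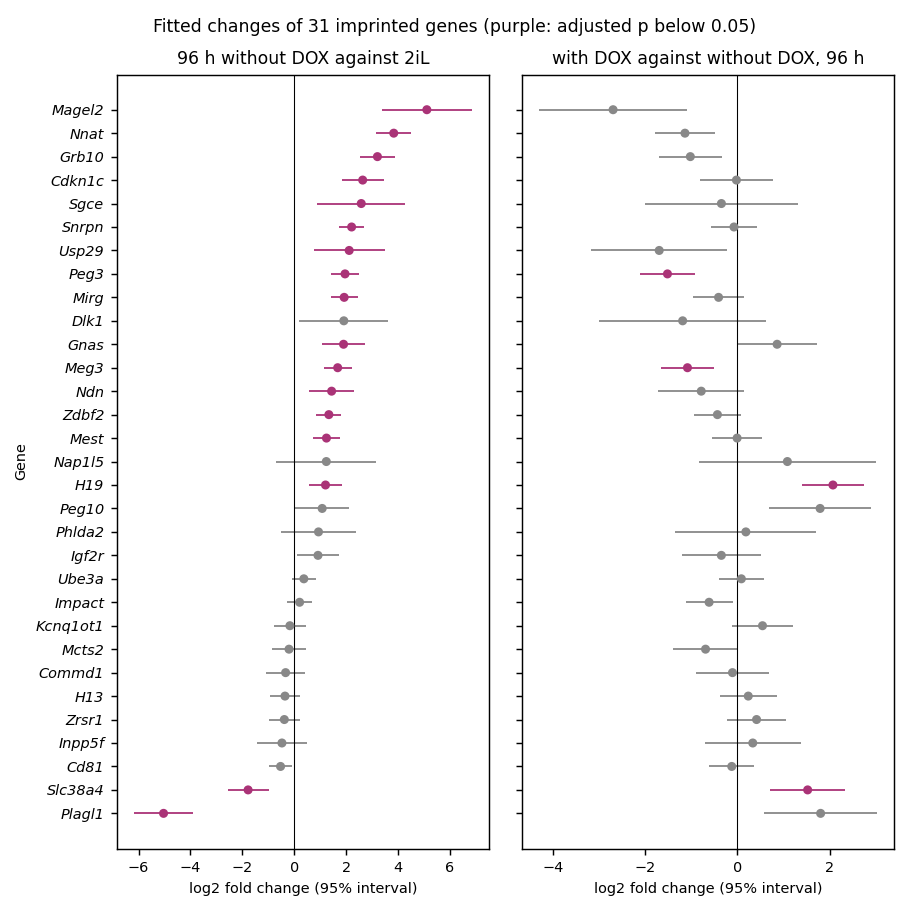
Fitted log2 fold changes of the 31 tested imprinted genes with 95% intervals, at 96 h without DOX against 2iL (left) and at 96 h with DOX against without DOX (right), in the order of the left panel; purple marks an edgeR adjusted p below 0.05. On the left 15 genes are purple to the right of 0 and Slc38a4 and Plagl1 to the left, and on the right H19 and Slc38a4 are purple above 0 and Peg3 and Meg3 below it; both panels use the libraries without DOX.

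The Dlk1-Meg3 domain on chromosome 12 holds maternally expressed non-coding RNAs, among them Meg3 and the microRNA host Mirg, and paternally expressed Dlk1, which encodes a membrane protein related to Notch ligands. Meg3 (chr12:109541001-109571726, GRCm38) had 2062, 2076, 1365 and 1481 CPM in 2iL. At 96 h it had 4718, 5458 and 6516 CPM without DOX and 3141, 2757 and 1957 CPM with DOX. The libraries without DOX were the highest of all, and one DOX library lay within the range of 2iL. Meg3 rose on removal of 2iL (log2 fold change 1.67 ± 0.26 (SE), edgeR adjusted p = 6.35e-05) and was lower with DOX than without (log2 fold change -1.08 ± 0.28 (SE), edgeR adjusted p = 0.0346). The first call held in all 10 fits that left out 1 library, but not in experiment 1 alone (log2 fold change 1.29, edgeR adjusted p = 0.0708). The second call was lost without 2iL exp2_1, 2iL exp2_2, DOX exp2_1 or any of the 3 libraries without DOX (edgeR adjusted p up to 0.156), and within experiment 1 alone (edgeR adjusted p = 0.461), while its log2 fold change stayed between -1.22 to -0.92. Both experiments gave a fall, of -0.99 and -1.24 on the log2 scale.

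Mirg, further along the same strand, had 81.1, 140.0, 85.7 and 114 CPM in 2iL, 341, 529.8 and 326 CPM without DOX and 362, 242 and 295 CPM with DOX. Every 96 h library exceeded every 2iL library, and the 96 h groups overlapped. Its rise was 1.92 ± 0.25 (SE) on the log2 scale without DOX and 1.51 ± 0.25 (SE) with DOX against 2iL (edgeR adjusted p = 9.01e-06 and 0.000208). The difference between the 96 h groups was -0.41 ± 0.27 (SE), with a 95% interval of -0.96 to 0.14. Whether Mirg and Meg3 differed in their response to DOX was not tested. Dlk1 was low, with 0.665, 0.875, 3.67 and 1.47 CPM in 2iL, 3.22, 4.94 and 11.1 without DOX and 4.50, 3.06 and 0 with DOX. It was called in no comparison by edgeR (adjusted p = 0.115, 0.566 and 0.63), and its interval for removal of 2iL ran from 0.19 to 3.63, so a rise as large as that of Meg3 lay within it. Dio3, the thyroid hormone deiodinase at the far end of this domain and not one of the 35 genes, had 29.9, 6.13, 14.4 and 14.7 CPM in 2iL and 0.878, 3.65 and 0 CPM without DOX. It fell while Meg3 and Mirg rose (log2 fold change -3.31 ± 0.78 (SE), edgeR adjusted p = 0.00387).

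In the Peg3 domain on chromosome 7, the zinc finger gene Peg3 (chr7:6703892-6730431) and the ubiquitin protease gene Usp29 are paternally expressed and start on either side of the stretch printed first. Peg3 had 27.9, 20.1, 45.3 and 30.2 CPM in 2iL, 129, 109.6 and 122 CPM at 96 h without DOX and 47.6, 34 and 43.7 CPM with DOX. The libraries without DOX were all above 100 CPM and stood clear of both other groups, which overlapped. Peg3 rose on removal of 2iL (log2 fold change 1.96 ± 0.26 (SE), edgeR adjusted p = 1.21e-05) and was lower with DOX than without (log2 fold change -1.52 ± 0.28 (SE), edgeR adjusted p = 0.00379). Each call held in all 10 fits that left out 1 library, although experiment 1 alone gave an edgeR adjusted p = 0.0882 for DOX. With DOX against 2iL the interval was -0.12 to 1.00.

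Usp29 had 3.32, 0.292, 2.76 and 5.89 CPM in 2iL, 19, 13.7 and 6.73 CPM without DOX and 6.87, 1.84 and 2.92 CPM with DOX. The 3 libraries without DOX exceeded all libraries in 2iL, the lowest of them by little. Its rise on removal of 2iL (log2 fold change 2.12 ± 0.66 (SE), edgeR adjusted p = 0.0251) was lost without 2iL exp1_2, 2iL exp2_1, or the libraries exp1_1 or exp1_2 without DOX (edgeR adjusted p up to 0.148). It was also lost with the experiment as a term (1.98, edgeR adjusted p = 0.0613) and with the library numbers as a replicate block (edgeR adjusted p = 0.0721). Against no DOX its log2 difference with DOX was -1.70 ± 0.71 (SE) (edgeR adjusted p = 0.246), which was not called. Zim1, a maternally expressed zinc finger gene beside Peg3, had 11 reads in all and 0 reads in 6 of the 10 libraries, so no comparison was made.

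The Snrpn-Ube3a domain, also on chromosome 7, corresponds to the human region affected in Prader-Willi and Angelman syndromes. Its paternally expressed genes include Snrpn, which encodes a splicing protein, and the MAGE family genes Ndn and Magel2. Snrpn (chr7:59982495-60140219) had 46.2, 86.9, 55.4 and 58.9 CPM in 2iL, 294, 267 and 298 CPM without DOX and 259.5, 249.8 and 305 CPM with DOX. All 6 libraries at 96 h lay above all 4 in 2iL, and the 96 h groups overlapped. The rise was 2.21 ± 0.23 (SE) without DOX and 2.14 ± 0.23 (SE) with DOX on the log2 scale (edgeR adjusted p = 5.35e-07 and 1.61e-06). The DOX effect at 96 h had an interval of -0.57 to 0.42. Snurf shares exons with Snrpn and its own ID had no reads, and Gm38393, which overlaps both, had 333 reads. How reads in shared exons were assigned or dropped is not known, so the level of Snrpn is uncertain to that extent.

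Magel2 was nearly silent in 2iL, with 4 reads over the 4 libraries, and had 0, 0.583, 0.306 and 0.368 CPM there. It had 14.9, 10.1 and 12 CPM at 96 h without DOX and 3.32, 1.53 and 0 CPM with DOX. The 3 libraries without DOX stood clear of all others. The rise on removal of 2iL was called (log2 fold change 5.11 ± 0.84 (SE), edgeR adjusted p = 0.000134), and its size rests on the few reads in 2iL. The lower level with DOX was not called (log2 fold change -2.70 ± 0.77 (SE), edgeR adjusted p = 0.0623), although the groups did not overlap; DESeq2 gave an adjusted p = 0.0115 for it. Ndn had 5.98, 4.38, 10.7 and 8.84 CPM in 2iL, 28.7, 16.8 and 15.5 CPM without DOX and 16.8, 10.7 and 6.56 CPM with DOX. Its rise without DOX (log2 fold change 1.44 ± 0.42 (SE), edgeR adjusted p = 0.0179) was lost without 2iL exp1_2 (edgeR adjusted p = 0.0628) or without exp1_1 of the libraries lacking DOX (0.141). Ube3a, a ubiquitin ligase expressed from the maternal copy in neurons, had 127, 123, 101 and 97.6 CPM in 2iL, 133, 177 and 124 CPM without DOX and 139, 134 and 188 CPM with DOX. Its groups lay close together and no comparison was called, with an interval of -0.09 to 0.82 for removal of 2iL.

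**Figure D3:**
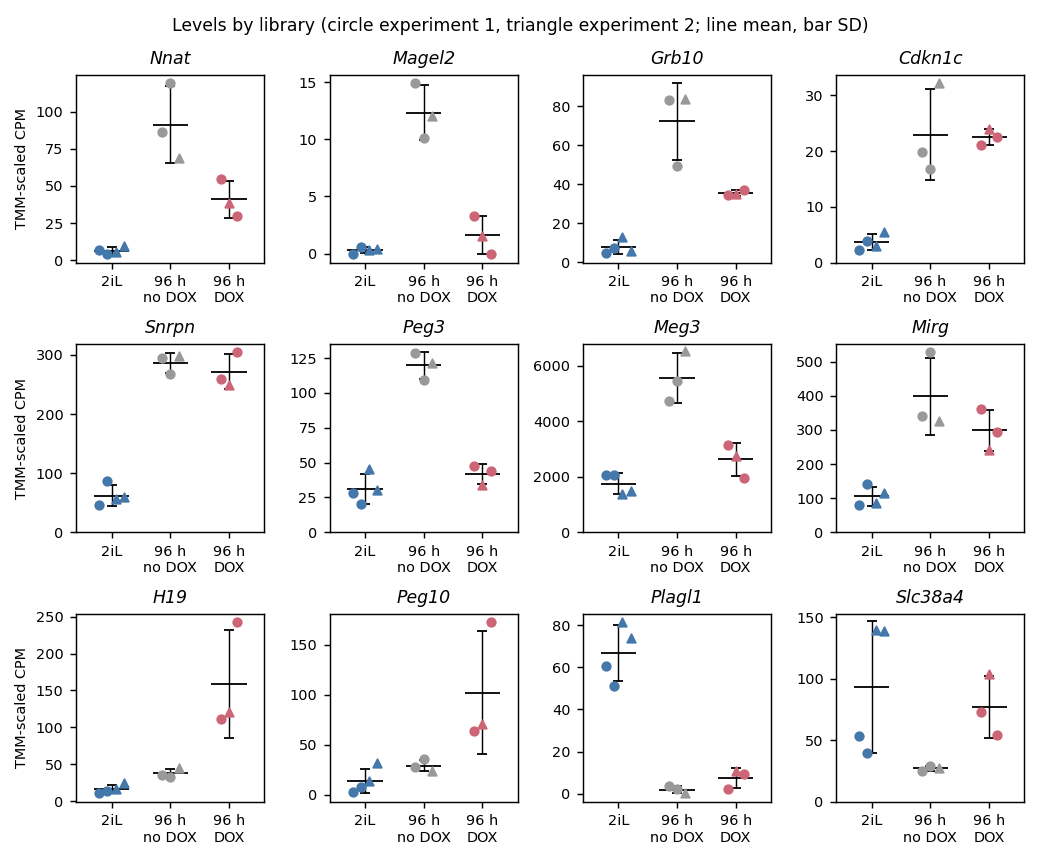
TMM-scaled CPM of 12 imprinted genes in each library (circles experiment 1, triangles experiment 2), with the mean (line) and SD (bar) of each group of 4, 3 and 3 libraries. Peg3 and Magel2 are high only in the 3 libraries at 96 h without DOX among these 10, Snrpn and Cdkn1c are high in both 96 h groups, H19 is highest with DOX, and the 2 libraries of experiment 2 in 2iL lie near 140 CPM for Slc38a4.

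The domain under Kcnq1ot1, a paternally expressed antisense RNA, contains Cdkn1c, whose product p57 inhibits cyclin-dependent kinases and restrains growth. Cdkn1c (chr7:143458339-143461050) had 2.33, 3.79, 3.06 and 5.53 CPM in 2iL, 19.9, 16.8 and 32.2 CPM without DOX and 21.1, 23.9 and 22.6 CPM with DOX. All 96 h libraries were above all 2iL libraries, and the means of the 96 h groups nearly coincided. The rise was 2.64 ± 0.39 (SE) and 2.61 ± 0.40 (SE) on the log2 scale (edgeR adjusted p = 4.4e-05 and 8.7e-05), and the DOX effect had an interval of -0.82 to 0.78. Kcnq1ot1 itself had 32.2, 49, 52.3 and 46.4 CPM in 2iL, 45.6, 44.5 and 29.9 CPM without DOX and 33.2, 60.3 and 83.8 CPM with DOX. Its groups overlapped and its interval for removal of 2iL was -0.79 to 0.45. Kcnq1ot1 lies within Kcnq1 on the other strand, and the sources used here do not state whether counting used the strand.

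None of the other tested members in that domain was called higher. Cd81, a tetraspanin gene, had 115, 138, 107 and 123 CPM in 2iL, 75.5, 85.9 and 89.9 CPM without DOX and 63.9, 74.4 and 93.3 CPM with DOX. Every 96 h library lay below every 2iL library. The fall was called only with DOX (log2 fold change -0.65 ± 0.22 (SE), edgeR adjusted p = 0.0468), and that call held in 2 of 10 fits that left out 1 library; it was lost in each of the 8 fits other than those without DOX exp1_2 or without exp1_2 of the libraries lacking DOX (edgeR adjusted p up to 0.191). Without DOX the log2 difference was -0.53 ± 0.22 (SE) (edgeR adjusted p = 0.0955), and it was called when DOX exp1_2 was left out of the fit (edgeR adjusted p = 0.0453). Phlda2, which restrains placental growth, had 1.99, 2.92, 1.53 and 6.26 CPM in 2iL, 3.80, 3.01 and 11.4 CPM without DOX and 2.13, 9.49 and 9.47 CPM with DOX, with wide overlap. Ascl2, a trophoblast transcription factor, had 62 reads in all (0.292 to 4.08 CPM), and the transporter gene Slc22a18 had 13 reads (0 to 1.46 CPM); neither was tested.

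Among the genes that act in growth factor signalling, Grb10 encodes an adaptor that dampens insulin and IGF receptors. Grb10 (chr11:11930508-12038683) had 4.98, 7.29, 12.9 and 5.89 CPM in 2iL, 83.4, 49.6 and 84 CPM without DOX and 34.6, 34.9 and 37.2 CPM with DOX. The 3 groups did not overlap, with the DOX libraries between the others. It rose without DOX (log2 fold change 3.21 ± 0.33 (SE), edgeR adjusted p = 4.88e-07) and with DOX against 2iL (log2 fold change 2.18 ± 0.33 (SE), edgeR adjusted p = 8.48e-05). The difference between the 96 h groups, -1.02 ± 0.33 (SE) on the log2 scale, was not called (edgeR adjusted p = 0.107). Its neighbours Cobl and Ddc, which are not among the 35 genes, fell over the same change of medium. Cobl, an actin nucleator, had 146, 237, 128 and 173 CPM in 2iL and 10.8, 8.16 and 8.49 CPM at 96 h without DOX (log2 fold change -4.22 ± 0.34 (SE), edgeR adjusted p = 2.51e-08).

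H19, a maternally expressed non-coding RNA (chr7:142575529-142578143), was the only one of the 31 tested genes called higher in all 3 comparisons. It had 11.3, 14, 15.6 and 24.3 CPM in 2iL, 34.8, 33.1 and 44.5 CPM without DOX and 112, 120.3 and 243 CPM with DOX. The 3 groups did not overlap. It rose on removal of 2iL (log2 fold change 1.2 ± 0.31 (SE), edgeR adjusted p = 0.0073) and further with DOX (log2 fold change 2.07 ± 0.32 (SE), edgeR adjusted p = 0.000739). The highest value was that of DOX exp1_2, the library with the high fibroblast marker sum. Without it the DOX effect was 1.63 (edgeR adjusted p = 0.00251), and experiment 2, which has no such library, gave 1.43. Extraembryonic endoderm markers summed to 428 to 579 CPM with DOX, against 18.4 to 38.7 in 2iL and 92.6 to 111 without DOX (9 of 12 had at least 10 reads, and Afp was at 0 in all libraries); their part in the H19 result was not tested. Igf2, the growth factor gene that shares enhancers with H19, had 0 reads in 2iL, 8 reads without DOX and 3 with DOX. Its antisense partner Igf2os also had 11 reads in all, and the difference was not testable at this depth. Igf2r, whose product removes IGF2, had 15, 12.5, 9.18 and 8.47 CPM in 2iL, 21.1, 13.5 and 29.6 CPM without DOX and 12.6, 13.5 and 25.5 CPM with DOX, and was called in no comparison.

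Peg10, a retrotransposon-derived gene needed in the placenta, and Sgce, which encodes epsilon-sarcoglycan, are paternally expressed neighbours on chromosome 6. Peg10 had 2.99, 8.17, 13.5 and 31.3 CPM in 2iL, 27.5, 35.4 and 24.3 CPM without DOX and 63.5, 70.4 and 173 CPM with DOX. The DOX libraries were above all others, and the groups in 2iL and without DOX overlapped. It was called with DOX against 2iL (log2 fold change 2.87 ± 0.50 (SE), edgeR adjusted p = 0.000576, 2.27 without DOX exp1_2) but not against no DOX (log2 fold change 1.79 ± 0.52 (SE), edgeR adjusted p = 0.0773). Without DOX exp1_2 the second value was 1.20 (edgeR adjusted p = 0.283). It was called by limma-voom (adjusted p = 0.0459), with the 96 h groups alone (edgeR adjusted p = 0.0222), and without 2iL exp1_1 (0.0268) or exp2_2 (0.0203). Its means in 2iL were 5.58 CPM in experiment 1 and 22.4 CPM in experiment 2, a difference that was not called (edgeR adjusted p = 0.511). In experiment 1 alone its rise without DOX was 2.46 (edgeR adjusted p = 0.00555), and over both experiments 1.08 ± 0.50 (SE) (edgeR adjusted p = 0.152). Leaving out 2iL exp2_2 gave 1.82 (edgeR adjusted p = 0.00749). Sgce had 0, 1.17, 1.22 and 1.47 CPM in 2iL, 6.44, 2.79 and 8.78 CPM without DOX and 2.37, 5.51 and 6.56 CPM with DOX. Its rise without DOX (log2 fold change 2.58 ± 0.81 (SE), edgeR adjusted p = 0.0268) was lost without any 1 of 2iL exp1_1, exp1_2 or exp2_1 or of exp1_1 or exp2_2 without DOX (edgeR adjusted p up to 0.125).

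Gnas encodes the stimulatory G protein alpha subunit and, from other promoters, imprinted transcripts that share its 3′ end, so the tags add them together. It had 13, 24.5, 24.2 and 25.1 CPM in 2iL, 107, 61.9 and 74.1 CPM without DOX and 63.9, 88.5 and 294 CPM with DOX. All 96 h libraries exceeded all 2iL libraries, and DOX exp1_2 was far above every other. Gnas rose without DOX (log2 fold change 1.90 ± 0.40 (SE), edgeR adjusted p = 0.0017). With DOX against 2iL the log2 fold change was 2.76 ± 0.41 (SE), and 1.81 without DOX exp1_2 (edgeR adjusted p = 0.000131). Between the 96 h groups it was 0.86 ± 0.42 (SE) with that library and -0.09 without it, and neither was called by edgeR (adjusted p = 0.338 and 0.965).

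**Figure D4:**
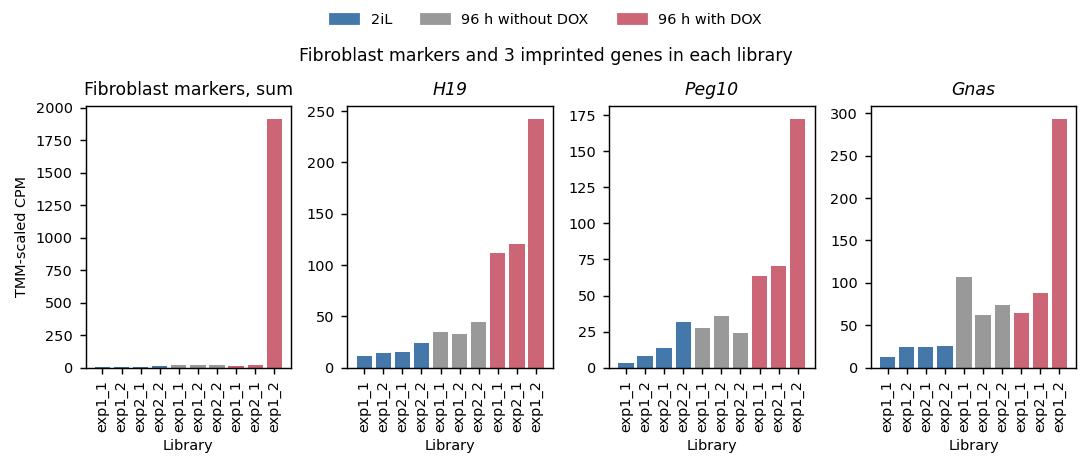
Summed TMM-scaled CPM of 7 fibroblast markers and the levels of H19, Peg10 and Gnas in each of the 10 libraries, as bars coloured by group. The DOX library exp1_2 reaches 1917 CPM for the markers and has the highest bar for each gene (243, 173 and 294 CPM), while the other DOX libraries lie at 112 and 120.3 CPM for H19 and at 63.5 and 70.4 CPM for Peg10.

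Nnat encodes neuronatin, a small membrane protein of neural and endocrine cells. It had 6.98, 4.08, 5.51 and 9.21 CPM in 2iL, 86, 119 and 68.5 CPM without DOX and 54.5, 38.3 and 29.9 CPM with DOX. The 3 groups did not overlap and the DOX libraries lay in between. Nnat rose without DOX (log2 fold change 3.83 ± 0.33 (SE), edgeR adjusted p = 5.34e-08) and with DOX against 2iL (log2 fold change 2.70 ± 0.32 (SE), edgeR adjusted p = 7.53e-06). The lower level with DOX than without, -1.14 ± 0.31 (SE) on the log2 scale, missed the threshold (edgeR adjusted p = 0.0512), and passed it with DESeq2 (adjusted p = 0.0205) and limma-voom (adjusted p = 0.0432). Neural markers summed to 162 to 646 CPM with DOX against 931 to 1487 CPM without it. Tubb3, the largest part of each sum, overlapped between these groups, as did Sox1 and Pax6. Sox3, Nes and Map2 were lower in every library with DOX. edgeR called 2 of the 6 lower and 0 higher, beside 0.945% and 2.16% of all tested genes. The part of these markers in the levels of Nnat was not tested.

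Mest and Zdbf2 rose with removal of 2iL in both 96 h groups. Mest, a paternally expressed hydrolase gene, had 53.8, 38.2, 66.1 and 58.2 CPM in 2iL, 138, 118 and 128 CPM without DOX and 109, 173 and 96.9 CPM with DOX. It rose by 1.24 ± 0.24 (SE) without and 1.23 ± 0.25 (SE) with DOX on the log2 scale (edgeR adjusted p = 0.000861 and 0.00139), and the DOX effect at 96 h had an interval of -0.55 to 0.54. Zdbf2, a zinc finger gene, had 30.9, 40.5, 42.9 and 34.6 CPM in 2iL, 104, 90.7 and 87.3 CPM without DOX and 64.6, 59.4 and 85.3 CPM with DOX. Its groups did not overlap, and its rises were 1.33 ± 0.23 (SE) and 0.90 ± 0.23 (SE) (edgeR adjusted p = 0.000217 and 0.0103). The difference of -0.43 ± 0.25 (SE) between the 96 h groups was not called.

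Plagl1 and Slc38a4 were the members that fell on removal of 2iL without DOX. Plagl1, a paternally expressed zinc finger factor that restrains proliferation, had 60.8, 51.3, 81.4 and 73.7 CPM in 2iL, 3.51, 2.15 and 0.293 CPM without DOX (23 reads in all) and 2.13, 10.7 and 9.47 CPM with DOX. Every 96 h library was far below every 2iL library. The fall was -5.04 ± 0.55 (SE) without DOX and -3.23 ± 0.49 (SE) with DOX on the log2 scale (edgeR adjusted p = 9.81e-07 and 8.7e-05). The 96 h groups overlapped (edgeR adjusted p = 0.118), though DESeq2 gave an adjusted p = 0.0295 for the higher level with DOX.

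Slc38a4, a transporter of neutral amino acids, had 53.5, 40, 139.9 and 139 CPM in 2iL, 24.9, 29 and 27.2 CPM without DOX and 73.4, 104 and 53.9 CPM with DOX. The libraries without DOX were the 3 lowest, and those with DOX lay within the range of 2iL. It fell without DOX (log2 fold change -1.78 ± 0.38 (SE), edgeR adjusted p = 0.00171) and was higher with DOX than without (log2 fold change 1.52 ± 0.39 (SE), edgeR adjusted p = 0.0369). The fitted fall was -0.79 in experiment 1 (edgeR adjusted p = 0.209 alone) and -2.36 in experiment 2, which has 1 library without DOX. Between the experiments the fall differed by -1.57 ± 0.51 (SE), which was not called. The DOX call was lost without any 1 of the 3 libraries lacking DOX and without DOX exp1_1 or exp2_1 (edgeR adjusted p up to 0.148).

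The remaining tested genes, Commd1, H13, Impact, Inpp5f, Mcts2, Nap1l5 and Zrsr1, were called in no comparison by edgeR. Several of them share a locus: Mcts2 is a retrogene in an intron of H13, and Zrsr1 lies within Commd1 on the opposite strand, so reads of that pair may be mixed. On removal of 2iL without DOX, Impact moved by 0.21 ± 0.23 (SE) on the log2 scale and H13 by -0.36 ± 0.28 (SE). The intervals were -1.08 to 0.41 for Commd1 and -0.98 to 0.21 for Zrsr1. Nap1l5 had 16 reads in 2iL and an interval of -0.69 to 3.16, so its depth could not show a moderate change. Mcts2 was lower with DOX than in 2iL by -0.89 ± 0.32 (SE) (edgeR adjusted p = 0.0615); DESeq2 called it (adjusted p = 0.0435).

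Seen across the genes, edgeR called 4 of the 31 tested members for DOX at 96 h. With 3 libraries a group, this does not show that the others were unchanged. In the comparison with and without DOX, 2 of 31 tested members were higher (H19 and Slc38a4) and 2 lower (Peg3 and Meg3), or 12.9%, where 3.1% of all tested genes were called (2.16% higher and 0.945% lower). The median log2 fold change was -0.11 over the members. The groups did not overlap for 10 of the 31 members, and for 18.8% of all tested genes. The count rested on the libraries used: it was 2 without any 1 of the 3 libraries lacking DOX or without DOX exp2_1, 6 without 2iL exp1_1, and 1 in experiment 1 alone. H19 and Peg3 were called in each of the 10 fits that left out 1 library. Without DOX exp1_2, 2 members were called higher and 2 lower.

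Against 2iL, the cultures with DOX had 10 members higher and 2 lower (38.7%), with 16.7% of all tested genes called (9.84% higher and 6.83% lower) and a member median of 0.65. Without DOX exp1_2 the counts were 12 and 2. This comparison shares its libraries with both others, so values stand side by side only. Called higher against 2iL both without and with DOX were H19, Cdkn1c, Gnas, Grb10, Mest, Mirg, Nnat, Snrpn and Zdbf2. Meg3, Peg3, Magel2, Ndn, Sgce and Usp29 were called higher without DOX and not with DOX against 2iL by edgeR on all libraries. Of these, Meg3 (0.75, edgeR adjusted p = 0.0181) and Magel2 (2.81, edgeR adjusted p = 0.0328) were also called higher with DOX once DOX exp1_2 was left out. DESeq2 called Meg3 (adjusted p = 0.0483) and Sgce (adjusted p = 0.0287) there on all libraries. Between the 96 h groups Meg3 and Peg3 were called, and Magel2 and Usp29 were not, with the values given above. Ndn (log2 fold change -0.79 ± 0.45 (SE), edgeR adjusted p = 0.432) and Sgce (log2 fold change -0.35 ± 0.80 (SE), edgeR adjusted p = 0.886) were not called there either.

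The experiments could be compared directly in 2iL, with 2 libraries each. edgeR called 0 members there (0.0357% of all tested genes); 2 had an unadjusted p under 0.05. These were Slc38a4, at 46.7 and 139.6 CPM (log2 difference 1.58 ± 0.31, SE; edgeR adjusted p = 0.114), and Peg10. For the difference between experiments in the response to removal of 2iL edgeR called 0 members (0.00892% of all tested genes), with 3 at an unadjusted p under 0.05 (Slc38a4, Plagl1 and Peg10). For the response to DOX it called 0 (0% of all tested genes), with Plagl1 at such a p. Only 1 library a group at 96 h came from experiment 2, and the Plagl1 value there without DOX rests on 1 read.

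A wider list of 55 other imprinted genes was set beside the members. It had 36 genes with at least 10 reads and 30 tested. Without DOX against 2iL 4 rose and 4 fell, where 20.4% of all tested genes were called. With DOX against without, 1 was higher and 0 lower, beside 3.1% of all tested genes. For DOX against 2iL, 2 were higher and 5 lower, beside 16.7%. Without DOX exp1_2 these counts were 6 and 5, 0 and 0, and 3 and 4. The median for removal of 2iL was -0.10, compared with 1.24 for the members. Besides Cobl and Dio3, Osbpl5, a lipid-binding protein gene at the edge of the Kcnq1ot1 domain, had 0.665, 0.292, 0.918 and 0.737 CPM in 2iL and 5.56, 6.44 and 8.20 CPM without DOX (log2 fold change 3.30 ± 0.83 (SE), edgeR adjusted p = 0.00626). Calcr, the calcitonin receptor gene near Peg10, had 1 read in 2iL and 69 at 96 h without DOX. Its ratio of reads was 77.4 with an exact 95% counting interval of 13.4 to 3099. With DOX against 2iL the named genes were Cobl (log2 fold change -3.63 ± 0.33 (SE), edgeR adjusted p = 3.41e-07), Dio3 (log2 fold change -3.61 ± 0.84 (SE), edgeR adjusted p = 0.00486), Ddc, which makes dopamine and serotonin (log2 fold change -1.67 ± 0.37 (SE), edgeR adjusted p = 0.00352), and Sfmbt2, a Polycomb-related gene. Sfmbt2 had 6.98, 12.8, 2.14 and 3.68 CPM in 2iL and 29.4, 20.5 and 51.7 CPM with DOX (log2 fold change 2.36 ± 0.50 (SE), edgeR adjusted p = 0.0024). Jade1 was the single gene higher with DOX than without (log2 fold change 0.91 ± 0.25 (SE), edgeR adjusted p = 0.0463), a call held in 1 of 10 fits that left out 1 library.

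Of 11 tested genes that protect imprints, 0 rose and 4 fell without DOX against 2iL, where 11.5% of all tested genes rose and 8.9% fell. Without DOX exp1_2, 1 rose (Arid4b, log2 fold change 0.63, edgeR adjusted p = 0.0456; named after its values were seen). Zfp57, which binds methylated control regions, had 39.9, 30, 18.4 and 4.05 CPM in 2iL, 2.93, 7.09 and 2.64 CPM without DOX and 11.8, 3.67 and 53.2 CPM with DOX. Its libraries scattered widely, with the highest of all in DOX exp1_2, and its fall (log2 fold change -2.41 ± 0.80 (SE), edgeR adjusted p = 0.0415) was called in 3 of 10 fits that left out 1 library. Dppa3, which guards maternal methylation in the zygote, fell from 48.9 ± 22.4 CPM (SD, n = 4) to 15.7 ± 4.99 CPM (SD, n = 3) (log2 fold change -1.64 ± 0.50 (SE), edgeR adjusted p = 0.0214), a call held in 6 of those 10 fits. Uhrf1, which brings DNMT1 to replicating DNA, fell from 169 ± 38.7 CPM (SD, n = 4) to 87.6 ± 17.2 CPM (SD, n = 3) (log2 fold change -0.95 ± 0.23 (SE), edgeR adjusted p = 0.00545). Zfp42, the naive marker also called Rex1, fell from 186 ± 36.9 CPM (SD, n = 4) to 18.9 ± 3.69 CPM (SD, n = 3) and was the only one of the 11 called between the 96 h groups, where it was higher with DOX (log2 fold change 2.10 ± 0.29 (SE), edgeR adjusted p = 0.000156). With DOX against 2iL, Uhrf1, Dppa3, Zfp42 and Dnmt1 were lower. For Dnmt1, the maintenance methyltransferase (log2 fold change -0.62 ± 0.20 (SE), edgeR adjusted p = 0.0381), the call held in 3 of the 10 fits.

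Among 7 genes that write or erase DNA methylation, 4 rose and 1 fell without DOX against 2iL, beside 11.5% and 8.9% of all tested genes. The de novo methyltransferase gene Dnmt3a had 29.2, 39.4, 29.4 and 22.1 CPM in 2iL, 216, 286 and 276 CPM without DOX and 936, 567 and 708 CPM with DOX. Dnmt3b had 195, 177, 171 and 159.5 CPM, 1921, 1591 and 1964 CPM and 1092, 1018 and 663 CPM in the same groups. Both rose on removal of 2iL, and with DOX Dnmt3a was higher (log2 fold change 1.51 ± 0.26 (SE), edgeR adjusted p = 0.00155) while Dnmt3b was lower (log2 fold change -0.98 ± 0.25 (SE), edgeR adjusted p = 0.0304, called in 5 of 10 fits that left out 1 library). Dnmt3l and Tet3 also rose without DOX (log2 fold change 1.04 ± 0.29 (SE), edgeR adjusted p = 0.0142 for Dnmt3l). For Tet3 the values were a log2 fold change 1.90 ± 0.48 (SE), edgeR adjusted p = 0.00658. The oxidase gene Tet2 had 34.6, 39.1, 11.9 and 26.9 CPM in 2iL, 2.93, 2.79 and 2.05 CPM without DOX and 14.7, 27.5 and 34.3 CPM with DOX. It fell without DOX (log2 fold change -3.42 ± 0.47 (SE), edgeR adjusted p = 1.96e-05) and was higher with DOX than without (log2 fold change 3.25 ± 0.49 (SE), edgeR adjusted p = 0.000511). Tet1 was also higher with DOX than without (log2 fold change 1.58 ± 0.35 (SE), edgeR adjusted p = 0.012), at 190.4, 179 and 499 CPM against 70.5, 131 and 87 CPM, and without DOX exp1_2 its log2 fold change was 0.94 (edgeR adjusted p = 0.0592). Against 2iL 5 of the 7 were higher with DOX (Dnmt3l, Dnmt3a, Dnmt3b, Tet3 and Tet1), beside 9.84% of all tested genes. Without DOX exp1_2 the count was 4, as Tet1 went from 1.14 to 0.49 (edgeR adjusted p = 0.211). On all libraries, the Dnmt3l call with DOX against 2iL (log2 fold change 0.88 ± 0.30 (SE), edgeR adjusted p = 0.0463) held in 5 of 10 fits that left out 1 library. Dnmt3l in DOX exp1_2, at 150 CPM, lay within the 86.3 to 185 CPM of 2iL. These are RNA levels, and methylation itself was not measured.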

How the data were processed

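Read counts per gene deposited by the authors were used for every value. Per the labels' protocols polyA RNA was sequenced from the 3′ ends of transcripts; per the submitters' processing notes bcl2fastq, STAR 2.6.0a and HTSeq were used with mm10. The sources used here name neither the annotation release nor the strand setting. The 5 HTSeq summary lines of each file, 62.7% to 68.4% of its reads, were left out of library totals.

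Symbols were matched by Ensembl ID (30934 of 31053), with positions from GENCODE vM21 (GRCm38). Genes were kept with filterByExpr (minimum count 10), scaled by TMM and fitted with edgeR 4.0.16 in R 4.3.3 (quasi-likelihood test, robust, all 10 libraries in 3 groups), with Benjamini-Hochberg adjustment over 11215 genes and calls at 0.05. The standard error is the log2 fold change divided by the root of the F statistic. The fit was tested on simulated data. Alternatives were RLE scaling, another filter, DESeq2 1.42.0, limma-voom (limma 3.58.1), the compared groups only, experiment 1 alone, the experiment as a term, a replicate block and leaving out each library.

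The 35 genes, the other gene lists, the motifs and the domains were chosen with earlier results of these data known. Values in every library are given for members called in any comparison and for members of their domains, for called genes of the methylation and imprint-protection lists, and for the 4 other imprinted genes with the largest called change and at least 5 CPM, per comparison; several are given in shortened form. Counting intervals cover counting error only.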

Additional observations from a re-analysis of the deposited data

Results flagged for a closer look

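In 2iL, the only group with 4 libraries, each of the 35 genes was checked for a library far from the other 3, by the gap to the nearest library over the whole range (Dixon's 95% critical value). Chance flags about 1 in 20 groups, and 3 of 35 were found. Gnas in exp1_1 was low, at 13 CPM against 24.2 to 25.1 CPM in the others. Zrsr1 in exp1_2 was high, at 97.1 CPM against 47.9 to 55.8 CPM. Slc22a18 had 0.306 CPM in exp2_1, a single read, and 0 in the others.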

How the results depend on the processing

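The number of members called without DOX against 2iL was 17 and ran from 14 to 18 when each library was left out in turn. With DOX against 2iL it was 12, with a range of 11 to 14. Between the 96 h groups it was 4, and 2 to 6 with a library left out; DESeq2 gave 7, experiment 1 alone 1 and the replicate block 2. The median log2 fold change with DOX against 2iL was 0.65, and 1.10 in experiment 1 alone. With every gene of at least 10 reads fitted, 1 member was called between the experiments in 2iL in place of 0. The cause of these differences was not tested, and the fit of experiment 1 alone also holds fewer libraries. The labels do not say whether libraries with the same number were handled together. Over 8 pairs with the same experiment and number, the correlation of deviations from the group means ran from -0.10 to 0.20. With so few libraries a group, such correlations cannot decide whether the samples are paired. With the replicate block, 15 members were called without DOX against 2iL and 11 with DOX against 2iL. The block also ended the calls of Meg3 (adjusted p = 0.138, edgeR) and Slc38a4 (adjusted p = 0.0642, edgeR) between the 96 h groups, and with the experiment as a term that comparison kept 4 called members. Of the values of single members under an alternative, 1551 kept their direction and their side of the threshold, 49 lost a call, 24 gained one, 45 uncalled ones changed sign, and none of the called ones changed direction. Depth limited Igf2, Zim1, Ascl2 and Slc22a18, which had 11, 11, 62 and 13 reads over the 10 libraries, and the size of the Magel2 change, with 4 reads in 2iL.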
